A study of Mus musculus with 4 samples.

Results

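The enzymes that make serine, pass it to glycine and feed its carbon into folate were examined in E14 mouse embryonic stem cells, with and without knockdown of Kdm2b. The gene set is a list of names drawn up with earlier results of these data known. It holds 10 genes, namely Phgdh, Psat1, Psph, Shmt1, Shmt2, Mthfd1, Mthfd2, Mthfd1l, Gldc and Tdh. Of these, 9 had a probe set annotated with a single gene symbol, out of 19938 genes tested. Each of the 9 had 1 such probe set. Tdh was not analysed here. Of the 9 genes, 3 fell after knockdown (Phgdh, Psph and Gldc), 0 rose and 6 did not pass the test, while 7.19% of all genes were called lower and 5.00% higher. A gene is called higher or lower where limma's adjusted p is under 0.05.

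The study profiled 4 Affymetrix MoGene 1.0 ST arrays, 2 of control cells and 2 of Kdm2b knockdown cells. All come from E14, an established stem cell line of an inbred 129 mouse strain, grown on gelatin in 15% serum, with leukemia inhibitory factor at 1000 units/ml. Per the labels' protocols, lentiviral vectors were applied at 10 MOI and puromycin selection (2 µg/ml) began 48 h later. The sources used here name neither the hairpin nor the vector of the control cells. They do not say whether replicates were grown separately, and the p-values therefore cover only array-to-array spread, which may be technical. Kdm2b is a histone demethylase that binds CpG-rich DNA through a zinc finger and brings a variant of Polycomb repressive complex 1 there. The series asks whether it keeps the cells in the stem cell state by doing so at lineage genes.

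Serine is made from the glycolytic intermediate 3-phosphoglycerate by Phgdh, Psat1 and Psph in turn. The hydroxymethyltransferases Shmt1, in the cytosol, and Shmt2, in mitochondria, then split serine into glycine and a carbon unit carried by tetrahydrofolate, and the Mthfd enzymes convert that unit between its oxidation states. Mouse embryonic stem cells are known for a high demand for such units, which they also obtain from glycine through Gldc and from threonine through Tdh. Phgdh, Psat1, Shmt2 and Mthfd2 are known targets of ATF4, the transcription factor of the amino acid response.

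The targeted gene was lower in the knockdown. For Kdm2b the control arrays read 10.74 and 10.64 in log2 units and the knockdown arrays 9.20 and 9.19, so it fell by 1.495 (SE 0.066, adjusted p = 0.0039, limma). The stem cell markers were present and none of the 10 tested passed the threshold, while 12.2% of all genes did. Their median log2 fold change was 0, and Pou5f1 stood at 13.57 and 13.52 in control and 13.59 and 13.66 in knockdown cells. The array medians ran from 8.49 to 8.55 in log2 units. Each of the 9 serine and one-carbon genes had a mean log2 level above the overall median of 8.52, so none would be lost to a filter on dim genes.

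The regions just before the start sites are shown for the 3 genes that fell and, beside them, for Shmt1 and Mthfd1, the pair whose difference was above 0, since Kdm2b binds DNA through CpG. Each line holds the 150 bases upstream of that listed start (GRCm38.p6), on the strand of the gene, with CpG dinucleotides in capitals. For Phgdh, Gldc and Shmt1 the window adjoins the outer end of the gene. The span of Psph reaches 129787443 and that of Mthfd1 begins at 76254406. Their windows therefore lie inside the gene, past its outermost start. The window of Phgdh is chr3:98339970-98340119 on the minus strand, that of Psph chr5:129787254-129787403 (minus), that of Gldc chr19:30175442-30175591 (minus), that of Shmt1 chr11:60811266-60811415 (minus) and that of Mthfd1 chr12:76255082-76255231 (plus).
Phgdh: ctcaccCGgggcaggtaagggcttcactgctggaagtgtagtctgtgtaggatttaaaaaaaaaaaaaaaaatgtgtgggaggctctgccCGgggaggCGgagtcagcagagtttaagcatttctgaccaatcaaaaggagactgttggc
Psph: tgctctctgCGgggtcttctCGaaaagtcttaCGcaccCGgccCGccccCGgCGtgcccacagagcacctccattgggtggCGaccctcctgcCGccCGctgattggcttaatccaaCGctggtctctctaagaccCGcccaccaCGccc
Gldc: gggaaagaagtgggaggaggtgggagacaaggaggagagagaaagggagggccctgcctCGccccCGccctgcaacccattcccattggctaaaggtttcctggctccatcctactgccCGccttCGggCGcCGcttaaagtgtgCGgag
Shmt1: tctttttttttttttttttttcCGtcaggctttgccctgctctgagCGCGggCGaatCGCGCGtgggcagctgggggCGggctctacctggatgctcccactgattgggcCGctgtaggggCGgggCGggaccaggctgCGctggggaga
Mthfd1: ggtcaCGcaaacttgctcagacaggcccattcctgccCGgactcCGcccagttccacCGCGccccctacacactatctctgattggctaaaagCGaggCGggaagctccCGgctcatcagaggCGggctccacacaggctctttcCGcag
Of the 10 listed genes, 9 had a promoter entry and Psat1 had 2, which gave 10 windows. Over 250 bases upstream, Psph held 23 CpG, Phgdh 7 and Gldc 8, while Shmt1 held 13 and Mthfd1 15. The median over 32807 mouse promoters was 6, with quartiles of 2 and 16. The 3 genes that fell thus spanned from near the median to above the upper quartile in CpG number, and the pair with positive differences lay between them.

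Other letters in the same 250 bases were searched on both strands. The ATF4 element TGATGNAA was found in 0 of the 10 windows and in 3.45% of all promoters. Its ATF part alone, TGATG, was found in 4 of the 10 windows (Mthfd1, Mthfd2, Mthfd1l and Gldc) against 34.5%. The Myc and Max E-box CACGTG was found in 0 of 10 against 6.02%. The CCAAT box (CCAAT), bound by NF-Y, was found in 7 of the 10 windows, which belong to 7 genes, against 33.8% of all promoters. The genes with a CCAAT box were Phgdh, Psat1, Psph, Shmt1, Mthfd1, Mthfd2 and Gldc, so they included all 3 that fell and both with a positive difference. As for Psph and Mthfd1, the windows of Mthfd2 and Mthfd1l and the inner window of Psat1 lie wholly or partly inside the gene span. Elements outside these windows, such as those elsewhere within introns, were not searched.

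Among the transcripts for serine synthesis, those of the first and last enzyme were called lower. That of the middle enzyme, Psat1, had a negative difference that did not pass the threshold. Phgdh, which oxidises 3-phosphoglycerate and commits it to serine, had log2 levels of 11.38 and 11.33 on the control arrays (mean 11.355 ± 0.035, SD, n = 2). The knockdown arrays read 10.72 and 11.03 (mean 10.875 ± 0.22, SD, n = 2). Both knockdown arrays lay below both controls, by at least 0.30, and the knockdown arrays differed from each other by 0.31. Phgdh fell by 0.48 in log2 units (SE 0.11, adjusted p = 0.0435, limma), which is 1.39-fold.

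A further probe set is annotated with both Phgdh and Gm6756, and the rule leaves it out. Its log2 values were 12.12 and 12.14 in control and 11.48 and 11.77 in knockdown cells, a difference of -0.505. Because it is also listed under Gm6756, it is not taken as an independent measurement of Phgdh. Both knockdown arrays lay below both controls here too.

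Psph, the phosphatase that releases serine in the last step, had log2 levels of 11.10 and 10.98 on the control arrays (mean 11.04 ± 0.085, SD, n = 2). The knockdown arrays read 10.52 and 10.64 (mean 10.58 ± 0.085, SD, n = 2). The groups were 0.34 apart, while replicates differed by 0.12 in each group. Psph fell by 0.46 in log2 units (SE 0.077, adjusted p = 0.0202, limma), or 1.38-fold.

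Psat1, the aminotransferase of the middle step, did not pass the threshold. Its log2 levels were 13.38 and 13.42 in control and 13.09 and 13.27 in knockdown cells. The groups did not overlap, but the gap of 0.11 was smaller than the 0.18 between the knockdown arrays. Its difference was -0.22 (SE 0.080, 95% interval -0.42 to -0.023, adjusted p = 0.133, limma).

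**Figure D1:**
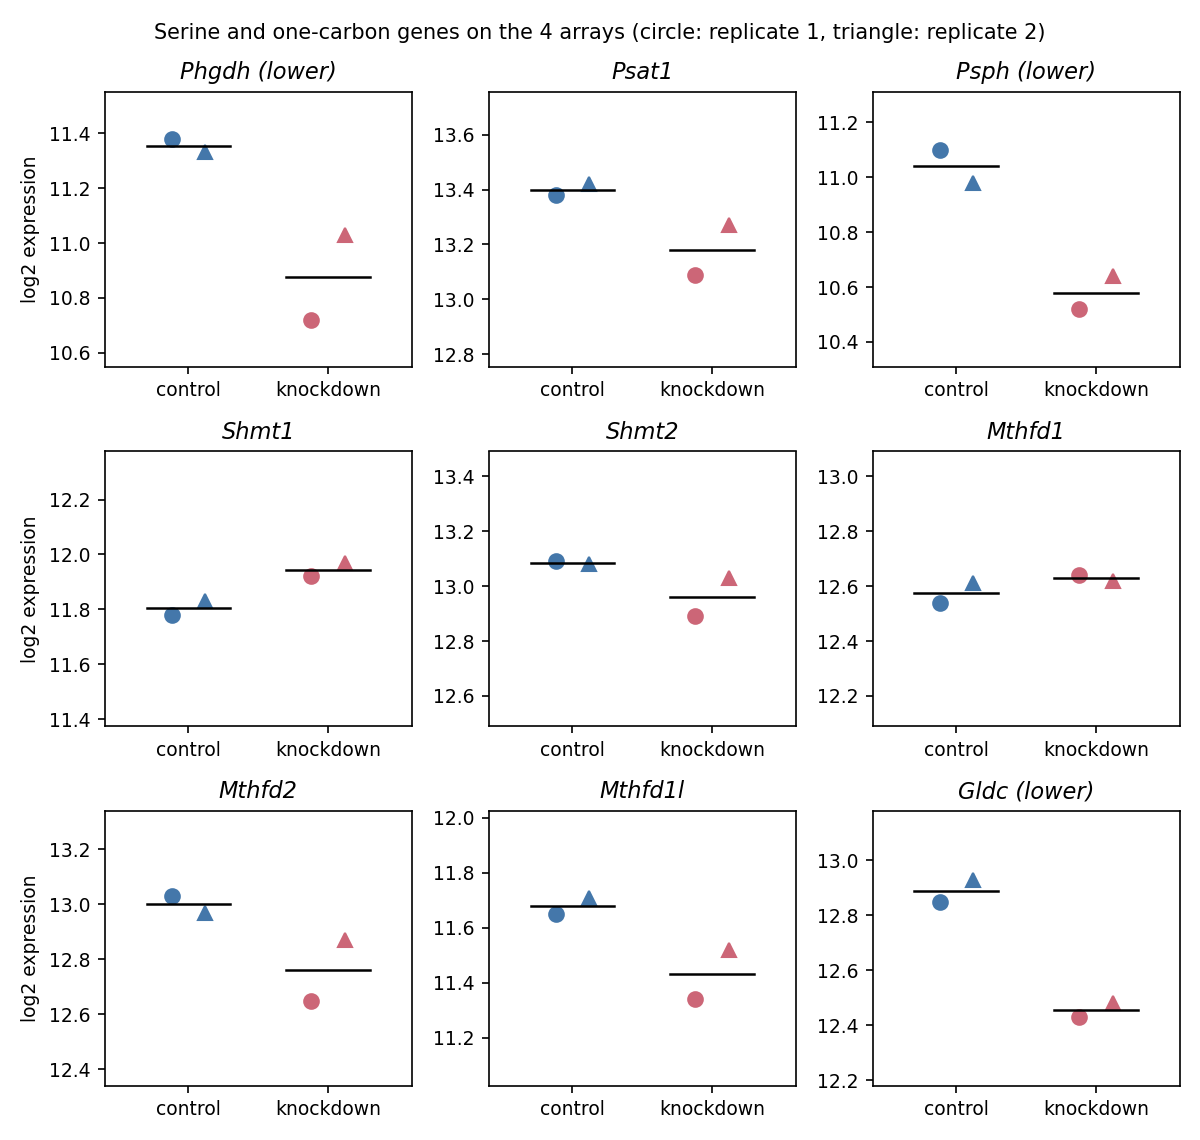
Log2 expression of the 9 measured genes on the 4 arrays, 1 panel per gene, with blue for control and red for knockdown, circles for replicate 1, triangles for replicate 2 and a black line for the group mean. Every panel spans 1 log2 unit, and (lower) marks the 3 genes past the threshold, whose groups are at least 0.30 apart.

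Gldc, the decarboxylase of the mitochondrial glycine cleavage system, stood furthest apart between the groups relative to its replicates. Its log2 levels were 12.85 and 12.93 on the control arrays (mean 12.89 ± 0.057, SD, n = 2). The knockdown arrays read 12.43 and 12.48 (mean 12.455 ± 0.035, SD, n = 2). The gap between groups was 0.37, against replicate differences of 0.08 and 0.05. Gldc fell by 0.435 in log2 units (SE 0.065, adjusted p = 0.0157, limma), or 1.35-fold.

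The partners of Gldc in glycine cleavage were not called. Amt, the aminomethyltransferase, had log2 levels of 11.68 and 11.53 in control and 11.36 and 11.47 in knockdown cells, a difference of -0.19 (SE 0.080, adjusted p = 0.18, limma). The carrier protein Gcsh differed by -0.075 and the shared dehydrogenase Dld by 0.155, with adjusted p-values of 0.612 and 0.206 (limma), and the value of Gcsh was 0.015 without knockdown replicate 1. Gcat, which works after Tdh in threonine breakdown, had log2 levels of 10.89 and 10.90 in control and 10.89 and 10.83 in knockdown cells, and its groups overlapped. Over the list of glycine cleavage and threonine partners, 0 of 8 measured genes were higher, 0 lower and 8 neither, against 5.00% and 7.19% of all genes called higher and lower. The list had a median log2 fold change of -0.06, where all genes tested had a median of 0.03. The median of the list was -0.115 without knockdown replicate 2 and -0.03 without control replicate 2.

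Neither hydroxymethyltransferase passed the threshold, and their differences had opposite signs. Shmt1, the cytosolic enzyme, had log2 levels of 11.78 and 11.83 in control and 11.92 and 11.97 in knockdown cells, a difference of 0.14 (SE 0.063, 95% interval -0.014 to 0.29, adjusted p = 0.202, limma). Shmt2, the mitochondrial enzyme, had log2 levels of 13.09 and 13.08 in control and 12.89 and 13.03 in knockdown cells. Its difference was -0.125 (SE 0.072, 95% interval -0.30 to 0.052, adjusted p = 0.301, limma), and the 0.14 between its knockdown arrays exceeded it.

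The folate enzymes differed by small amounts and none was called. Mthfd1, the cytosolic enzyme with synthetase, cyclohydrolase and dehydrogenase activities, had log2 levels of 12.54 and 12.61 in control and 12.64 and 12.62 in knockdown cells. Its groups were 0.01 apart, and the difference was 0.055 (SE 0.063, 95% interval -0.10 to 0.21, adjusted p = 0.604, limma). For this gene the interval does not reach a fall as large as the estimates for Phgdh, Psph and Gldc. It covers only array-to-array spread, which may be technical.

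Mthfd2, the mitochondrial dehydrogenase and cyclohydrolase, had log2 levels of 13.03 and 12.97 in control and 12.65 and 12.87 in knockdown cells. Its difference was -0.24 (SE 0.089, 95% interval -0.46 to -0.021, adjusted p = 0.139, limma). Mthfd1l, the mitochondrial formate-releasing synthetase, had log2 levels of 11.65 and 11.71 in control and 11.34 and 11.52 in knockdown cells, a difference of -0.25 (SE 0.081, 95% interval -0.45 to -0.051, adjusted p = 0.103, limma). Knockdown replicate 1 was the lower of the knockdown arrays for both.

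**Figure D2:**
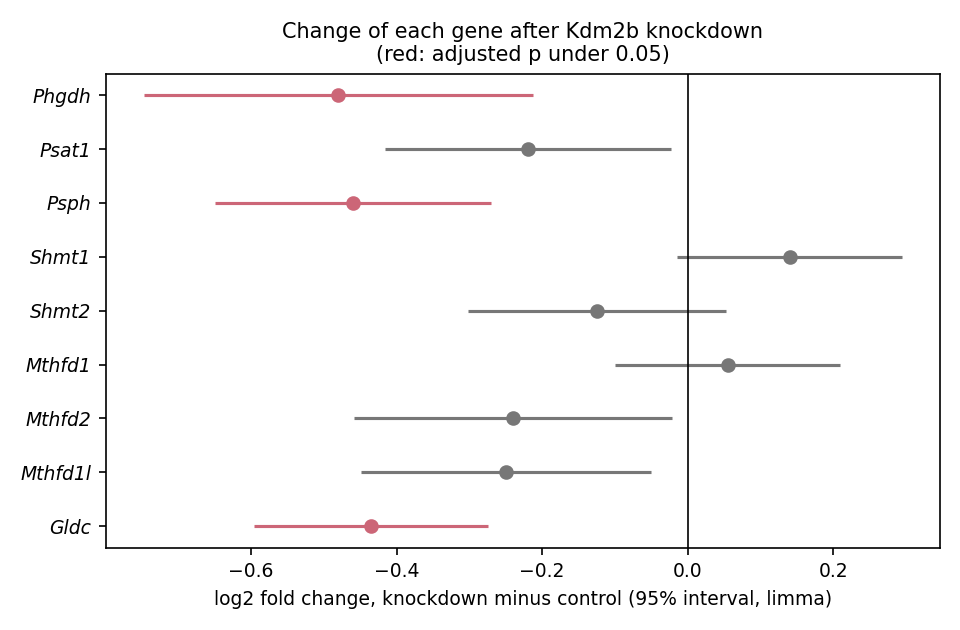
Log2 fold change of each measured gene, knockdown minus control, as a point with its 95% interval from limma (2 arrays per group). Red marks Phgdh, Psph and Gldc, which passed the threshold. Shmt1 and Mthfd1 are the only points above 0 and their intervals include 0.

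Because related enzymes work in cytosol and mitochondria, the difference between their probe sets was also taken within each array. Probe sets differ in brightness, so only the change of this difference between groups can be read. Shmt2 minus Shmt1 was 1.31 and 1.25 in control and 0.97 and 1.06 in knockdown cells, a change of -0.265 on the log2 scale. Mthfd2 minus Mthfd1 was 0.49 and 0.36 in control and 0.01 and 0.25 in knockdown cells, a change of -0.295. Mthfd1l minus Mthfd1 was -0.89 and -0.90 in control and -1.30 and -1.10 in knockdown cells, a change of -0.305. Without knockdown replicate 1 the 3 changes were -0.22, -0.175 and -0.205, and without knockdown replicate 2 they were -0.31, -0.415 and -0.405. With all 4 arrays the groups did not overlap for any of the 3 pairs, of which the last 2 share Mthfd1. The exact two-sided permutation test gave p = 0.333 for each. That is the smallest value that 2 against 2 arrays allow, so these changes cannot pass a threshold. Mthfd2l, a mitochondrial relative of Mthfd2 in the folate list, was not paired and differed the other way. Its log2 levels were 8.75 and 8.70 in control and 9.09 and 9.53 in knockdown cells, a difference of 0.585 (adjusted p = 0.051, limma).

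Across the 9 genes, 7 had a negative log2 fold change and 2 a positive one, with a median of -0.24, against 0.03 over all genes tested. Control and knockdown arrays were separated for 9 of 9 genes, as they were for 58.8% of all genes. For 7 of the 9 the knockdown arrays were the lower, against 25.0% of all genes, and for 2 the higher, against 33.8%. By size, 5.85% of all genes changed more than Phgdh, 6.37% more than Psph and 7.15% more than Gldc, in either direction, while 73.3% changed more than Mthfd1.

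The knockdown arrays were not equal. Knockdown replicate 1 was below replicate 2 for 8 of the 9 genes, with Mthfd1 as the exception, and the median difference between them was 0.14, against 0.04 between the control arrays. Over all genes tested replicate 1 was below replicate 2 for 9293 of 19938. Without knockdown replicate 1 the median log2 fold change of the 9 genes was -0.13, and without knockdown replicate 2 it was -0.34. Phgdh stood at -0.325 and -0.635, and Gldc at -0.41 and -0.46, in the same comparisons. Psat1 stood at -0.13 and -0.31, Mthfd2 at -0.13 and -0.35, Mthfd1l at -0.16 and -0.34 and Shmt2 at -0.055 and -0.195. Mthfd1 ran from 0.02 (control replicate 1 left out) to 0.09 (control replicate 2 left out). Leaving out any array turned the direction of 0 of the 9 genes, but limma then called 0 of all 19938 genes. Between 3495 and 4215 genes had an unadjusted p under 0.05 in those fits, and 5941 when no array was left out. The adjusted p-values without an array ran from 0.196 to 0.335 for Phgdh, 0.198 to 0.264 for Psph and 0.196 to 0.258 for Gldc.

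**Figure D3:**
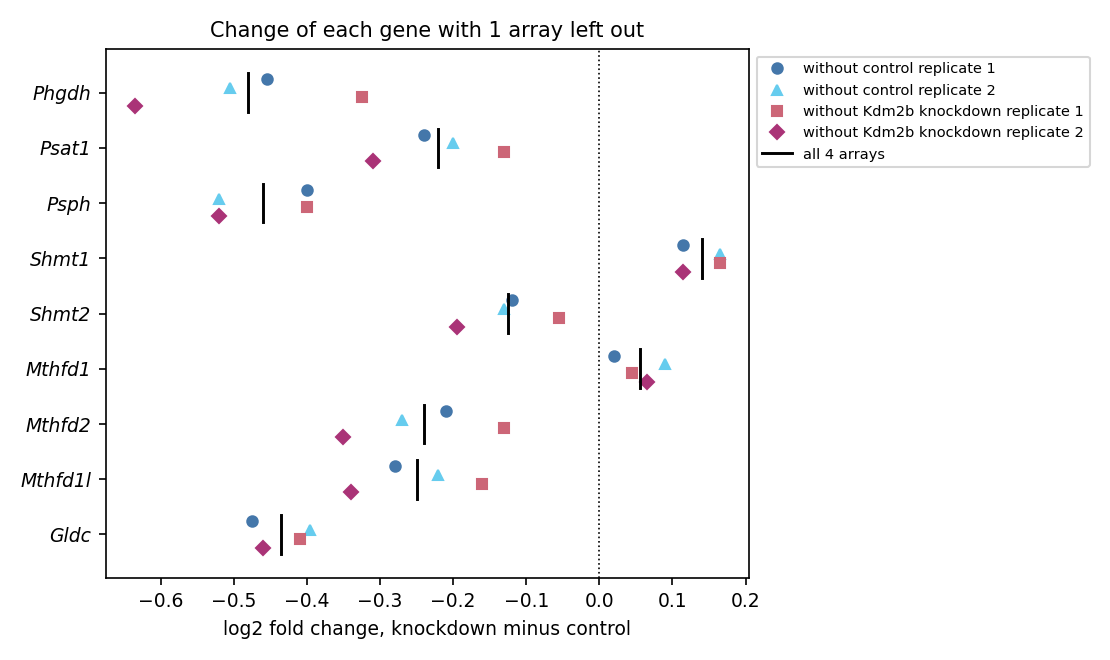
Log2 fold change of each measured gene with 1 array left out (coloured markers) beside the value from all 4 arrays (black bar). Leaving out knockdown replicate 1 (squares) moves Phgdh to -0.325 and leaving out replicate 2 (diamonds) moves it to -0.635, while Gldc stays between -0.475 and -0.395.

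Markers of primitive endoderm, the extraembryonic lineage that Gata6 directs, moved on the same arrays. All 12 measured had a positive log2 fold change, with 5 higher, 0 lower and 7 neither, and a median of 0.52. Over all 19938 genes 11344 had a positive one, with 5.00% called higher and 7.19% lower, the shares for each marker list below too. Of the 5 calls, that of Sox17 was lost under quantile normalization and the gene lies under the overall median level, and Dab2 differed by 0.185, not past the threshold, with its dimmer probe set. Their summed level on the linear scale was 16896 to 18579 on the control arrays and 24003 to 30019 on the knockdown arrays, and none was listed at 0. Gata6 had log2 levels of 10.07 and 10.04 in control and 11.74 and 12.60 in knockdown cells. All 12 were higher on knockdown replicate 2 than on replicate 1, as were 8 of the 9 serine and one-carbon genes. The order of 2 knockdown arrays cannot show whether the 2 sets of genes are related. Of 14 fibroblast and feeder markers 1 was higher, 2 lower and 11 neither, and their summed level was 5066 and 5094 in control and 5055 and 4921 in knockdown cells. Of 8 trophectoderm markers 2 were higher, 1 lower and 5 neither, and of 7 neural markers 1 was higher, 1 lower and 5 neither. The part of other cell types in the changes of the serine genes was not tested, and in these bulk samples fewer cells of a type and less RNA per cell cannot be told apart.

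Several genes of the amino acid response fell beside the serine enzymes. Of 24 measured in the list of ATF4 and amino acid response genes, 7 were lower, 0 higher and 17 neither. Of all genes 7.19% were called lower and 5.00% higher. The list is not of targets alone, since it also holds the kinase genes Eif2ak3 and Eif2ak4. Among the genes not called were Asns (-0.175), Trib3 (-0.345) and Chac1 (-0.455). All 24 had a negative log2 fold change, as had 8309 of all 19938 genes, and the median was -0.26. That median was -0.16 without knockdown replicate 1 and -0.1625 without control replicate 1, with 22 of 24 negative in each case. Nupr1, a stress-induced chromatin protein, had log2 levels of 12.64 and 12.44 in control and 10.95 and 11.36 in knockdown cells and fell by 1.385 (SE 0.15, adjusted p = 0.0077, limma). The lipoprotein receptor gene Vldlr fell by 1.02 (SE 0.22), the secreted glycoprotein gene Stc2 by 0.75 (SE 0.14) and Aldh18a1, an enzyme of proline synthesis, by 0.67 (SE 0.12). Atf4 itself had log2 levels of 11.17 and 11.24 in control and 11.04 and 11.30 in knockdown cells, and its groups overlapped. Its difference was -0.035 (SE 0.098, adjusted p = 0.845, limma), and 0.095 without knockdown replicate 1. Knockdown replicate 1 was the lower of the knockdown arrays for 19 of the 24 genes.

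Transporters of serine and glycine, in the cell membrane and in mitochondria, were mixed. Of 14 measured, 1 was higher, 2 lower and 11 neither, against 5.00% of all genes called higher and 7.19% lower. The median of -0.055 was -0.01 without knockdown replicate 1 and -0.095 with the arrays centred on their medians. Slc1a4, a transporter of serine, alanine and other neutral amino acids, had log2 levels of 11.86 and 11.45 in control and 10.71 and 10.91 in knockdown cells and fell by 0.845 (SE 0.15, adjusted p = 0.0212, limma). Slc6a9, a glycine transporter, had log2 levels of 12.18 and 11.79 in control and 11.02 and 11.38 in knockdown cells and fell by 0.785 (SE 0.17, adjusted p = 0.0359, limma). Slc38a5, which also carries serine and glycine, rose by 0.525 (SE 0.088, adjusted p = 0.0203, limma) from log2 levels of 8.29 and 8.37 to 8.75 and 8.96.

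Among the other folate enzymes and carriers 0 of 14 were higher, 1 lower and 13 neither, against 5.00% of all genes called higher and 7.19% lower. The median was 0.06, or 0.0125 without knockdown replicate 1 and 0.02 with the arrays centred on their medians. With dim genes removed, or with an intensity trend in the prior, 2 genes of this list were higher and 1 lower. The gene that fell was Aldh1l2, the mitochondrial enzyme that oxidises the formyl group of folate to carbon dioxide. Its log2 levels were 9.36 and 9.11 in control and 8.33 and 8.69 in knockdown cells, so that it fell by 0.725 (SE 0.14, adjusted p = 0.0293, limma).

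Purine and thymidylate synthesis, which consume folate-bound carbon, held 0 genes that were higher, 4 lower and 13 neither of 17 measured, with a median of 0.015. The shares of all genes were 5.00% higher and 7.19% lower. Paics, which adds carbon dioxide and aspartate to the growing purine ring, had log2 levels of 13.95 and 13.93 in control and 13.28 and 13.56 in knockdown cells and fell by 0.52 (SE 0.10, adjusted p = 0.0293, limma). Adsl, which follows it in the pathway, also fell by 0.52 (SE 0.097). Adssl1, an adenylosuccinate synthase, fell by 0.71 (SE 0.073). Its knockdown arrays read 8.48 and 8.34, under the overall median of 8.52. The other adenylosuccinate synthase of the list, Adss, had a mean log2 level of 12.79 and differed by 0.015 (adjusted p = 0.897, limma). Prps1, which supplies phosphoribosyl pyrophosphate, fell by 0.375 (SE 0.064). Thymidylate synthase (Tyms) and the other 12 genes of the list were not called. The steps that take up folate-bound carbon are run by Gart, Atic and Tyms, which differed by 0.04, 0.01 and 0.095.

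In the methionine cycle and transsulfuration, where serine combines with homocysteine, 1 of 13 genes was higher, 4 lower and 8 neither, with a median of 0. The shares of all genes were 5.00% higher and 7.19% lower. Cth, which releases cysteine from cystathionine, had log2 levels of 13.15 and 13.12 in control and 12.48 and 12.76 in knockdown cells and fell by 0.515 (SE 0.10, adjusted p = 0.03, limma). Ahcyl2, related to the hydrolase of S-adenosylhomocysteine, fell by 0.53 (SE 0.075) and Gnmt, a glycine methyltransferase with a mean log2 level of 8.22, under the overall median, by 0.435 (SE 0.079). Bhmt2, a homocysteine methyltransferase, rose by 0.355 (SE 0.076, adjusted p = 0.0376, limma) from a low level, and it was not past the threshold with the arrays centred on their medians or after quantile normalization.

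**Figure D4:**
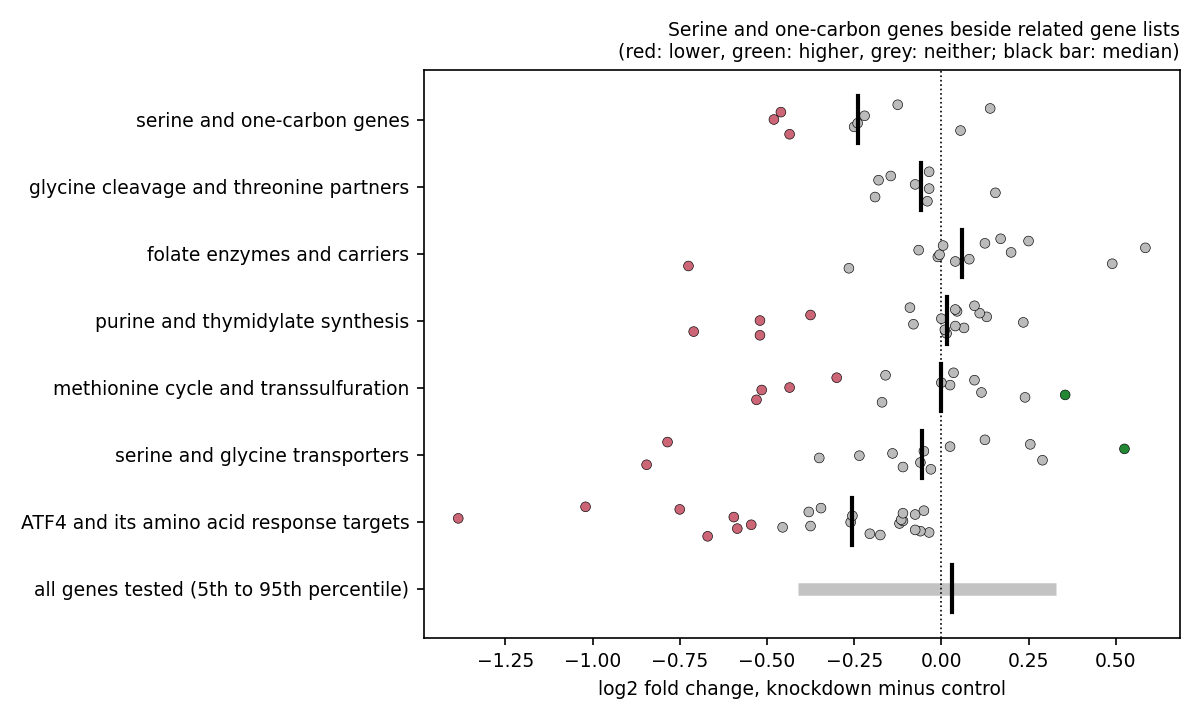
Log2 fold change of each measured gene in the serine and one-carbon set and in 6 related lists, with red for lower, green for higher and grey for neither, and a black bar at each median. The bottom row gives the median (0.03) and the 5th to 95th percentile (-0.41 to 0.33) of all 19938 genes. The medians of the serine set (-0.24) and of the ATF4 list (-0.26) lie left of the others.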

How the data were processed

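The deposited table holds log2 expression for 35557 probe sets on each of 4 arrays, which the authors made in Affymetrix Expression Console (per the submitters' notes). The version, background step, summary method and scaling were not given in the sources used here. The log2 scale was read from the values, 3.12 to 14.74. The number of arrays limits the precision.

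Of the probe sets, 21789 had 1 gene symbol in the platform annotation, 1621 had several and 12147 had no entry. Per gene the one with the highest mean over the 4 arrays was kept, which gave 19938 genes. The comparison used limma 3.58.1 under R 4.3.3 with group as its single term. Tests were two-sided, and p-values were adjusted over all genes by Benjamini-Hochberg. eBayes gave 3.9 prior degrees of freedom, and the procedure was tested on simulated data. It recovered 0 of 50 genes changed 1.25-fold, 22 of 50 at 1.5-fold, 38 of 50 at 2-fold and 46 of 50 at 3-fold. It called 0 of 19738 unchanged genes. Far fewer genes changed there than were called here, so these rates do not carry over directly. A gene that was not called is not shown to be unchanged. SE is limma's moderated standard error.

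The members and lists were chosen with earlier results of these data known. The text names all members, Kdm2b, up to 4 called genes of each pathway list with the largest change, and Atf4, Gcat, Amt, Gcsh and Dld always. Pou5f1 and Gata6 were named from the marker lists after their values were seen. So were Gart, Atic, Adss and Mthfd2l from the pathway lists. Promoter sequences are from RefSeq (GRCm38.p6). The alternatives were a replicate block, leaving out each array, quantile normalization, median centring, a filter on dim genes, other choices of probe set, and a trend or robust prior.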

Additional observations from a re-analysis of the deposited data

How the results depend on the processing

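All 9 genes kept their direction under every alternative run, and Phgdh, Psph and Gldc were past the threshold in each fit of all 4 arrays without a block. Over these and the blocked fit the log2 fold change ran from -0.52 to -0.454 for Phgdh, -0.50 to -0.436 for Psph and -0.475 to -0.416 for Gldc. With the replicate number as a block limma called 0 genes higher and 0 lower (5411 at an unadjusted p under 0.05), so 0 of the 9 genes, and Kdm2b stood at -1.495 with an adjusted p of 0.127. The labels give same-numbered arrays a common number only, and whether these arrays share a culture or batch is not stated. Their deviations from the group means correlated at 0.0954, which cannot show whether they do. With each array left out the counts were 0 to 0 in both directions, 0 to 0 of the 9 genes, and Kdm2b ran from -1.545 to -1.445. The fits with fewer arrays or a block leave 1 residual degree of freedom. Pck2 of the ATF4 list was lower by 0.595 with all arrays and stood at -0.385 without knockdown replicate 1. With the arrays centred on their medians the list medians were -0.025 (purine), -0.04 (methionine), -0.0975 (glycine and threonine), -0.095 (transporters), 0.02 (folate) and -0.2975 (ATF4). With each array left out they ran from -0.01 to 0.03, -0.06 to 0.04, -0.115 to -0.03, -0.085 to -0.01, 0.0125 to 0.095 and -0.3125 to -0.16 in the same order. The added folate calls, both higher, were Mthfd2l and Slc25a32 with dim genes removed (11526 genes). With an intensity trend they were Mthfd2l and Dmgdh. Other pathway lists gained calls too. Impdh1 (purine) was higher under quantile normalization and with dim genes removed. Slc25a38 (transporters) was higher with an intensity trend, and Bhmt (methionine) with its dimmer probe set. In the ATF4 list Eif2ak4 was lower with median centring or dim genes removed, and Asns with an intensity trend. These genes were named after their values were seen.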
